A study of Mus musculus with 6 samples.

Results

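The 10 genes described here encode the enzymes that carry long-chain fatty acids into mitochondria and shorten them there by beta-oxidation: Cpt1a, Slc25a20, Cpt2, Acadvl, Acadl, Acadm, Hadha, Hadhb, Hadh and Acaa2. They were chosen by name, as the rows of the normalized count table whose Ensembl identifiers carry these symbols in the GENCODE mouse annotation. All 10 were found among the 55416 genes of the table, and all 10 were among the 18459 genes that were tested, those whose normalized counts averaged 10 or more. Their reads made up 0.0940% of all reads on genes in the PBS library of mouse 1 (95% Wilson interval 0.0928% to 0.0952%, counting error only) and 0.185% in the LDL library of mouse 2 (0.184% to 0.187%), the lowest and the highest of the 6 libraries.

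RNA was sequenced from organoids, which are small three-dimensional cultures of intestinal epithelium grown from crypts. The crypts came from the duodenum and jejunum of 3 C57BL/6 mice whose genotype is given as wild type. Organoids of each mouse were treated with 50 μg/ml low-density lipoprotein (LDL), the main cholesterol-carrying particle of plasma, or with PBS as the vehicle control, for 5 days, which gave 3 LDL-treated and 3 PBS-treated libraries. The replicate number stands for the mouse, so each LDL library has a PBS partner of the same animal, and p-values measure the spread between cultures of 3 mice. The animal identifier of mouse 3 differs in form from the others although its genotype is listed as wild type, so results are also given without mouse 3.

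Long-chain fatty acids cross the mitochondrial membranes as carnitine esters. Cpt1a makes the ester at the outer membrane, Slc25a20 exchanges it for free carnitine across the inner membrane, and Cpt2 returns the acyl group to coenzyme A inside. Each round of beta-oxidation then takes 4 reactions: an acyl-CoA dehydrogenase (Acadvl, Acadl or Acadm, by falling chain length), a hydratase, a second dehydrogenase and a thiolase. For long chains the last steps are carried out by the trifunctional protein, built from Hadha and Hadhb, whereas Hadh and Acaa2 are separate matrix enzymes that act mainly on shorter chains. The pathway is known to be used by intestinal stem and progenitor cells, and many of its genes are targets of the lipid-sensing PPAR nuclear receptors.

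The libraries held 22061545 to 31073360 reads on genes. They expressed epithelial genes, with Epcam at 20049 to 24334 normalized counts, whereas markers of stroma and endothelium were near 0. The 7 stromal markers summed to 15.5 to 43.9 normalized counts per library and the 4 endothelial markers to 10.9 to 35.4, and the 6 immune markers to 101 to 178, of which Lyz2 held 75.8 to 164. Dcn, Lum and Col3a1, which define stromal cells, were at 0 in at least 1 PBS library and at most 8.54 elsewhere. Within the epithelium, mouse 2 stood apart in both treatments. The 12 enterocyte markers summed to 94251 (PBS) and 163224 (LDL) in mouse 2, against 53358 to 53785 (PBS) and 89129 to 100544 (LDL) in mice 1 and 3. The 5 markers of fetal-like epithelium summed to 87.0 (PBS) and 1538 (LDL) in mouse 2, against 542 to 762 and 12939 to 17626. Fewer cells of a type and less RNA per cell cannot be told apart in such bulk libraries.

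Across the 10 genes, LDL-treated organoids held more RNA for 7 genes by at least 1 limma fit: Cpt1a, Slc25a20, Acadl and Hadhb without pairing, and Hadha, Cpt2 and Acadvl with mice paired. Acadm and Hadh were lower with mice paired, and Acaa2 passed neither fit. In the limma fit without pairing, 4 of 10 genes were called upregulated (adjusted p under 0.05 and a change over 1.5-fold): Cpt1a, Slc25a20, Acadl and Hadhb. Of all genes tested, 0.878% were called upregulated and 0.395% downregulated by this rule. limma called 0 of the 10 genes downregulated, as did edgeR and DESeq2 without pairing, and 1 of them (Hadh) was lower at an unadjusted p under 0.05, beside 7 that were higher. At that unadjusted threshold 1838 of the 18459 genes were higher and 1796 lower. With the mouse as a block, 5 of 10 were called upregulated, Hadha being added, and 1 (Hadh) downregulated, where 5.68% of all genes were called upregulated and 3.46% downregulated. At an adjusted p under 0.05 with the block and any fold, 7 of 10 were higher and 2 lower, against 8.27% and 7.45% of all genes. The median log2 fold change was 0.60 over the 10 genes and -0.02 over all genes tested.

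**Figure D1:**
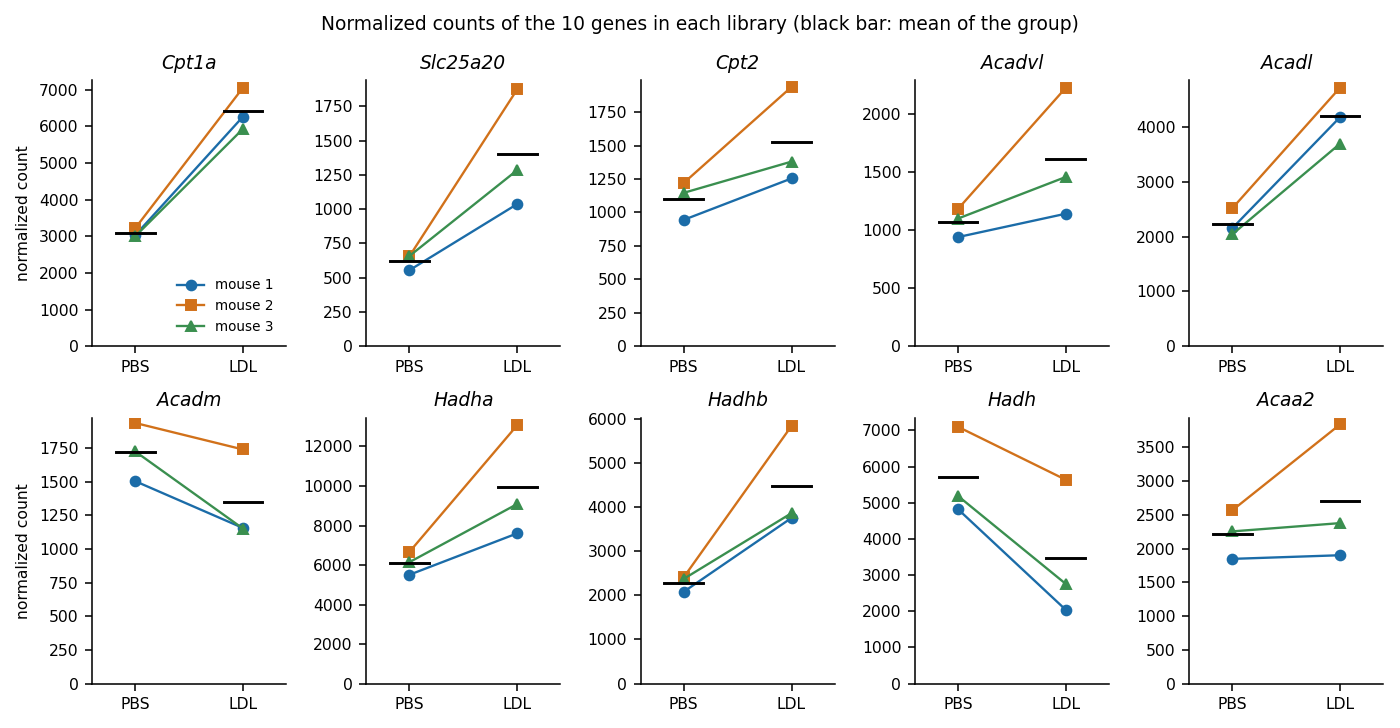
Normalized count (vertical axes, from 0, each panel on its own scale) of each of the 10 genes in PBS- and LDL-treated organoids, with lines joining the libraries of a mouse and black bars at the group means. Cpt1a rose from between 3000 and 3222 to between 5936 and 7060, Hadh was lower in the LDL library of each mouse, and mouse 2 had the highest LDL value of all 10 genes.

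**Figure D2:**
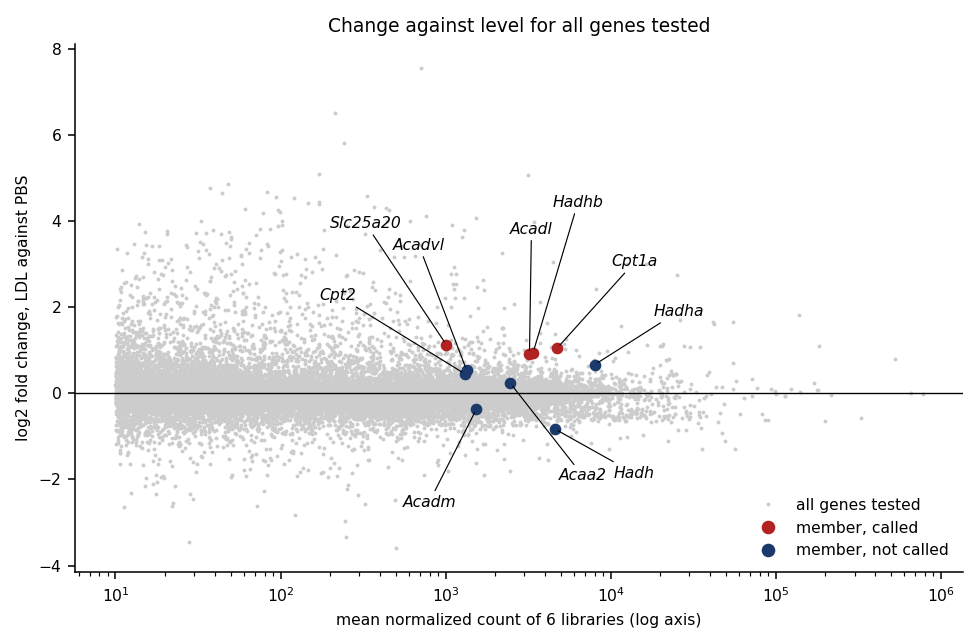
Log2 fold change of LDL against PBS (vertical axis, limma on log2 of the normalized count plus 1) against the mean normalized count of 6 libraries (log axis) for the 18459 genes tested, with the 10 genes named and those called in the fit without pairing in red. The 10 genes lie between 1010 and 8015 normalized counts, with 8 above 0 and 2 (Acadm and Hadh) under it.

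Cpt1a, the rate-limiting enzyme of the pathway, rose about as much in each mouse. The gene (ENSMUSG00000024900) lies on GRCm39 chr19:3371853-3437996, plus strand. Its normalized counts were 3031, 3222 and 3000 in PBS-treated organoids of mice 1, 2 and 3, and 6269, 7060 and 5936 in LDL-treated organoids. The groups did not overlap, and the libraries within a group lay close together. The means were 3084 ± 120 (PBS) and 6422 ± 577 (LDL; SD, n = 3). Cpt1a rose by 1.05 ± 0.10 on the log2 scale (SE; 95% interval 0.83 to 1.28; limma, adjusted p = 0.00447), and within mice by 1.05, 1.13 and 0.98. Cpt1a was called in each of the 6 fits that left out 1 library (limma, adjusted p = 0.000594 to 0.0457), and without both libraries of mouse 3 it was not called unpaired (0.302) but was with the block (0.0157).

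Cpt1a is the liver-type form of its enzyme, and the forms known from other tissues were scarce. Cpt1b, the muscle form, held 7.32 to 17.6 normalized counts over the 6 libraries and Cpt1c, the brain form, 12.2 to 35.4. Per kilobase of transcript, Cpt1a was at 468 ± 18.2 in PBS-treated organoids, against 2.77 ± 0.39 for Cpt1b and 4.88 ± 0.55 for Cpt1c (SD, n = 3). Neither of the scarce forms passed the test, with log2 fold changes of 0.42 for Cpt1b (limma, adjusted p = 0.618) and 0.80 for Cpt1c (0.237).

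Slc25a20, the carnitine-acylcarnitine carrier (ENSMUSG00000032602, chr9:108539250-108562760, plus strand), had the largest mean log2 fold change of the 10 genes, which rested on mouse 2. In mice 1 and 3 Cpt1a changed more, and without the LDL library of mouse 2 the log2 fold changes were 0.89 for Slc25a20 and 0.98 for Cpt1a. Its normalized counts were 554, 656 and 658 in PBS-treated and 1037, 1873 and 1284 in LDL-treated organoids of mice 1, 2 and 3. Every LDL library lay above every PBS library, and the LDL library of mouse 2 was the highest. Slc25a20 rose by 1.13 ± 0.20 on the log2 scale (SE; 95% interval 0.65 to 1.60; limma, adjusted p = 0.0478, and 0.00148 with the block). The call without pairing was lost without the PBS library of mouse 1, 2 or 3 (limma, adjusted p = 0.179, 0.158 and 0.155) or the LDL library of mouse 3 (0.203).

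Cpt2, the inner-membrane transferase (ENSMUSG00000028607, chr4:107751473-107780812, minus strand), had more RNA in the LDL library of every mouse. It held 944, 1220 and 1146 normalized counts with PBS and 1254, 1938 and 1380 with LDL. The groups did not overlap, although the lowest LDL value was close to the highest PBS value. The log2 fold change of 0.45 ± 0.18 (SE) missed the threshold without pairing (limma, adjusted p = 0.214) and passed it with the block (adjusted p = 0.0183), at less than 1.5-fold. It was 0.26 without the LDL library of mouse 2. Without both libraries of mouse 3 it did not pass with the block (limma, adjusted p = 0.116). The annotated span of Cpt2 shares 5223 bases with that of Czib on the opposite strand, which held 501 to 597 normalized counts.

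The stretches just upstream of the annotated starts of Cpt1a, Slc25a20 and Acadl, which rose, and of Hadh, which was lower with LDL, are shown because these genes moved differently within 1 pathway. They were read from GRCm39 at the start of the canonical GENCODE M39 transcript, up to 250 bases, leaving out bases annotated as an exon of a coding gene. Capitals mark 4 short motifs on either strand. They are the GC box GGGCGG, the CCAAT box by its letters, the letters TATAAA of a TATA box, and the core AGGTCA that nuclear receptors such as the PPARs are known to bind. The coordinates are chr19:3373021-3373270 (plus strand) for Cpt1a, chr9:108539047-108539249 (plus) for Slc25a20, chr1:66902634-66902882 (minus) for Acadl and chr3:131065751-131066000 (minus) for Hadh.
Cpt1a: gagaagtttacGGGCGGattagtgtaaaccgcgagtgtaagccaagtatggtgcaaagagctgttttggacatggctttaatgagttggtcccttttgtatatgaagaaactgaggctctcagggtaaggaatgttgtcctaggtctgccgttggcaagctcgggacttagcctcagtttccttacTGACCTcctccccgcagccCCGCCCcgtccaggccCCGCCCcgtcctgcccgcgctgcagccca
Slc25a20: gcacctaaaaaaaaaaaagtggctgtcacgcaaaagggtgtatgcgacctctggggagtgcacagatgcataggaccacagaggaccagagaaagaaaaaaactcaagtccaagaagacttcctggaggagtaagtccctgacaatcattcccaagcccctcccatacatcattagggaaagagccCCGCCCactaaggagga
Acadl: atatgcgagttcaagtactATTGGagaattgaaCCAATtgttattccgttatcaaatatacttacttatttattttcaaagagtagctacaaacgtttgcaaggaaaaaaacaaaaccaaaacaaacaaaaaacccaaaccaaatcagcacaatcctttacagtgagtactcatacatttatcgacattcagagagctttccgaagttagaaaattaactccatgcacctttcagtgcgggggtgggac
Hadh: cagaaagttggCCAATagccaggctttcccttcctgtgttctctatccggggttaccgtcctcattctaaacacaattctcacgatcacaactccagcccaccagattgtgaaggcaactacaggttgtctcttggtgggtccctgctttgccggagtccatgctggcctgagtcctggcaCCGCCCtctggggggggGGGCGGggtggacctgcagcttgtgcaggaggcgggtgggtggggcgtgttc
The Cpt1a stretch holds AGGTCA on the opposite strand, 64 to 59 bases before the start, and 3 GC boxes. The Acadl stretch holds CCAAT on each strand and no GC box, and its GC content of 35.6% was the lowest of the 10 genes, whose median was 57.6% against 53.2% over 21717 promoters. AGGTCA was found in the 250 bases before the start of 3 of 10 genes (Cpt1a, Acadvl and Hadha), against 13.1% of all promoters. The direct repeat of AGGTCA with 1 base between, the arrangement that PPAR dimers are known to bind, was found in 0 of 10 even with up to 2 mismatches, against 2.91% of all promoters. GGGCGG was found in 7 of 10 against 36.3%, CCAAT in 3 of 10 against 36.5%, and TATAAA in 0 of 10 against 11.9%. These are matches of letters in a short window and say nothing of binding elsewhere.

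Of the 3 acyl-CoA dehydrogenases among the 10 genes, the long-chain enzyme rose, the very-long-chain enzyme passed the test only with mice paired, and the medium-chain enzyme was lower in each mouse. Acadl (ENSMUSG00000026003, chr1:66868267-66902633, minus strand) held 2155, 2519 and 2044 normalized counts in PBS-treated and 4183, 4723 and 3699 in LDL-treated organoids of mice 1, 2 and 3. All LDL values were above all PBS values, and the 3 mice changed by nearly the same amount, with within-mouse log2 changes of 0.96, 0.91 and 0.86. Acadl rose by 0.91 ± 0.12 on the log2 scale (SE; 95% interval 0.62 to 1.19; limma, adjusted p = 0.0200, and 0.000353 with the block). Unpaired, the call was lost without the PBS library of mouse 1 or 3 (limma, adjusted p = 0.123 and 0.103) or the LDL library of mouse 3 (0.0773). A processed pseudogene, Gm15793, lies within Acadl on the same strand and held 129 to 342 normalized counts, with a log2 fold change of -0.63 (limma, adjusted p = 0.212).

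Acadvl (ENSMUSG00000018574, chr11:69900853-69906270, minus strand), which takes the longest chains, held 940, 1183 and 1100 normalized counts with PBS and 1142, 2227 and 1458 with LDL. The groups overlapped, since the LDL value of mouse 1 was below the PBS value of mouse 2. Its log2 fold change was 0.53 ± 0.23 (SE; limma, adjusted p = 0.248, and 0.0249 with the block, or 0.175 with the block and without mouse 3), less than 1.5-fold. Without the LDL library of mouse 2 it was 0.27. The annotated span of the gene shares 2275 bases with that of Dvl2 on the opposite strand. The longest match of the canonical Acadvl transcript to a Dvl2 transcript was 263 of 2210 bases. Dvl2 held 322 to 667 normalized counts and had a log2 fold change of -0.44 (limma, adjusted p = 0.271). Whether the authors' counting used strand is not given in the sources used here, so reads of the shared bases cannot be told apart.

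Acadm (ENSMUSG00000062908, chr3:153627989-153650317, minus strand), the medium-chain dehydrogenase, was lower with LDL in each of the 3 mice. Its normalized counts were 1503, 1935 and 1724 with PBS and 1155, 1738 and 1151 with LDL. The groups overlapped through mouse 2, whose LDL value exceeded the PBS values of mice 1 and 3. Its log2 fold change was -0.37 ± 0.18 (SE; 95% interval -0.78 to 0.04; limma, adjusted p = 0.295, and 0.0373 with the block, or 0.368 with the block and without mouse 3), less than 1.5-fold. Without the LDL library of mouse 2 it passed unpaired, at -0.57 (limma, adjusted p = 0.0152), also less than 1.5-fold.

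Hadha and Hadhb encode the alpha and beta subunits of the trifunctional protein and are neighbours transcribed away from each other. On chr5, Hadha lies at chr5:30323302-30360187 (ENSMUSG00000025745, minus strand) and Hadhb at chr5:30359204-30389997 (ENSMUSG00000059447, plus strand), and the annotated genes overlap by 984 bases. They lie on opposite strands, so reads of the shared bases cannot be told apart unless the counting used strand, which is not given. The starts of their canonical transcripts are separated by 64 bases. The part of that gap outside annotated exons, chr5:30360188-30360235, is shown on the plus strand because both genes start from it, with its GC box in capitals.
Hadha and Hadhb: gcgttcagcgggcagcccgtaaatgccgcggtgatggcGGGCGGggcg
Hadha held 5508, 6667 and 6146 normalized counts in PBS-treated and 7603, 13079 and 9088 in LDL-treated organoids. Hadhb held 2081, 2411 and 2373 with PBS and 3754, 5838 and 3862 with LDL. In both genes the groups did not overlap and mouse 2 had the highest LDL value. Hadhb rose by 0.94 ± 0.17 on the log2 scale (SE; 95% interval 0.54 to 1.34; limma, adjusted p = 0.0484, and 0.00205 with the block). Unpaired, its call was lost without the PBS library of mouse 1, 2 or 3 (limma, adjusted p = 0.181, 0.158 and 0.163) or the LDL library of mouse 3 (0.169). The change of Hadha was 0.67 ± 0.19 on the same scale (SE; 95% interval 0.22 to 1.11), which missed the threshold without pairing (limma, adjusted p = 0.121) and passed it with the block (0.00679) and with DESeq2 (0.00806). Without both libraries of mouse 3, Hadha did not pass with the block (limma, adjusted p = 0.101) and Hadhb did (0.0289).

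The Hadhb values carry a limit of mapping. A processed pseudogene, Hadhb-ps, matches the canonical Hadhb transcript over 1428 of its 2033 bases at 99.8% identity, so reads can be shared between them. Hadhb-ps held 583, 748 and 717 normalized counts with PBS and 1092, 1675 and 1160 with LDL, which was 0.280 to 0.310 of the Hadhb count in each of the 6 libraries. The 2 rows thus kept nearly 1 ratio in all libraries. With both rows summed, the log2 difference between the groups was 0.94, as for Hadhb alone.

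The 2 enzymes of shorter chains at the end of the spiral did not rise by the same test. Hadh, the 3-hydroxyacyl-CoA dehydrogenase of short and medium chains (ENSMUSG00000027984, chr3:131027068-131065750, minus strand), held 4820, 7099 and 5186 normalized counts in PBS-treated and 2038, 5635 and 2755 in LDL-treated organoids of mice 1, 2 and 3. It was lower with LDL in each mouse, by 1.24, 0.33 and 0.91 on the log2 scale, and mouse 2 was the highest in both treatments. The LDL value of mouse 2 lay above the PBS values of mice 1 and 3, so the groups overlapped. The log2 fold change was -0.83 ± 0.34 (SE; 95% interval -1.62 to -0.04; limma, adjusted p = 0.237), and with the block it was called downregulated (adjusted p = 0.0107). Without the LDL library of mouse 2 it was also called unpaired, at -1.25 (limma, adjusted p = 0.00393), and without both libraries of mouse 3 it was not called with the block (0.157).

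Acaa2 (ENSMUSG00000036880), the thiolase that cleaves off acetyl-CoA, held 1849, 2569 and 2256 normalized counts with PBS and 1903, 3842 and 2379 with LDL. Mice 1 and 3 changed by 0.04 and 0.08 on the log2 scale and mouse 2 by 0.58. The log2 fold change of 0.23 ± 0.25 (SE; 95% interval -0.34 to 0.80) passed the threshold neither without pairing (limma, adjusted p = 0.662) nor with the block (0.214), and it was -0.05 without the LDL library of mouse 2.

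Among the 10 genes, 6 had groups that did not overlap with LDL above PBS, and 0 had LDL below PBS, where 11.9% and 12.3% of all genes tested did. The size of the change differed between mice. Mouse 2 had the largest (or least negative) change in 9 of 10 genes and the highest LDL count in 10 of 10, where it held the highest LDL count of 40.0% of all genes tested. The median within-mouse log2 change of the 10 genes was 0.44 in mouse 1, 0.91 in mouse 2 and 0.49 in mouse 3. The summed normalized counts of the 10 genes were 23386, 29480 and 25633 with PBS and 30338, 47953 and 32993 with LDL. They were highest in mouse 2 in both treatments, as were the summed enterocyte markers, whereas fetal-like markers were lowest in mouse 2.

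Enterocyte and fetal-like markers also moved with the treatment. Of the 12 enterocyte markers, limma called 2 upregulated without pairing, Alpi and Fabp1, and with the block 5 upregulated and 2 downregulated, among the latter Lct. Of the 5 fetal-like markers, 0 were called without pairing (5 were higher at an unadjusted p under 0.05, and edgeR called 0 and DESeq2 5) and 5 of 5 were called upregulated with the block. Fabp1, the fatty acid-binding protein of absorptive cells, held 4197, 10487 and 5127 normalized counts with PBS and 26670, 69615 and 36032 with LDL. Markers of other epithelial cells changed as well. Of 7 goblet markers, limma called 1 upregulated and 2 downregulated without pairing, and 1 and 3 with the block. Of 6 stem cell markers the block gave 1 and 2, and of 6 Paneth markers also 1 and 2. It gave 0 and 2 of 7 enteroendocrine markers and 0 and 1 of 3 tuft markers tested. The part of these markers in the values of the 10 genes was not tested.

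Ratios between members within a library do not depend on how libraries were scaled. They are given as a description of how the genes of 1 pathway changed beside each other, since none passed a test. The 5 ratios were tested with an exact permutation test over the 6 libraries (two-sided), in which 3 libraries against 3 cannot give a p below 0.1. The ratio of Acadm to Acadvl was 1.60, 1.64 and 1.57 with PBS and 1.01, 0.780 and 0.789 with LDL (exact p = 0.1, 0.125 adjusted over 5 ratios). It was lower with LDL in 3 of 3 mice. The ratio of Acaa2 to Hadhb was 0.888, 1.07 and 0.951 with PBS and 0.507, 0.658 and 0.616 with LDL, with the same exact p. The log2 difference of that ratio was -0.71, from log2 fold changes of 0.23 for Acaa2 and 0.94 for Hadhb.

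Cpt1a to Cpt2, the outer to the inner transferase, stood at 3.21, 2.64 and 2.62 with PBS and at 5.00, 3.64 and 4.30 with LDL (exact p = 0.1, 0.125 adjusted). Hadha to Hadhb, the ratio of the trifunctional subunits, was 2.65, 2.77 and 2.59 with PBS and 2.03, 2.24 and 2.35 with LDL (exact p = 0.1, 0.125 adjusted). For both, the groups did not overlap, and the smallest p of this unpaired test was reached. With mice paired, an exact sign-flip test gave p = 0.25 for both, the smallest that 3 pairs can give. Acadl to Acadvl was 2.29, 2.13 and 1.86 with PBS and 3.66, 2.12 and 2.54 with LDL, where the groups overlapped (exact p = 0.3, also after adjustment) and mouse 2 did not change.

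**Figure D3:**
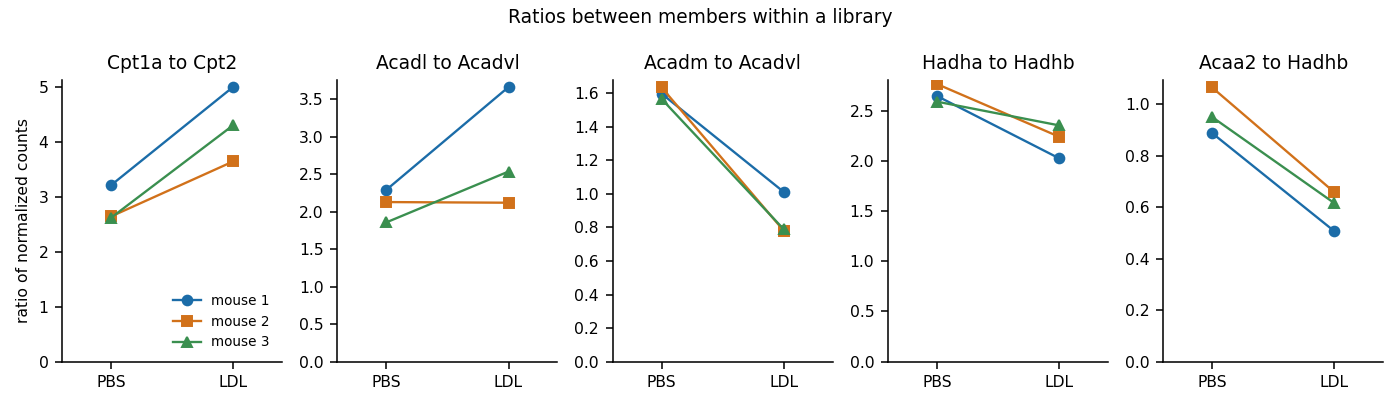
Ratio of the normalized counts of 2 members within a library (vertical axes, from 0) in PBS- and LDL-treated organoids, with lines joining the libraries of a mouse. In the ratios of Acadm to Acadvl, Hadha to Hadhb and Acaa2 to Hadhb the 3 LDL values lie under the 3 PBS values, and for Acadl to Acadvl the groups overlap.

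Levels of different genes were compared as normalized counts per kilobase of the canonical transcript. In PBS-treated organoids Hadh was the most abundant at 3187 ± 684 per kilobase (SD, n = 3), followed by Hadha at 1512 ± 144, Acaa2 at 1270 ± 206 and Hadhb at 1126 ± 88.7. Acadl at 896 ± 99.5 and Acadm at 836 ± 105 came next, then Acadvl at 486 ± 55.8, Cpt1a at 468 ± 18.2, Cpt2 at 464 ± 60.1 and Slc25a20 at 349 ± 33.3. Neighbours in this order overlapped in their 3 libraries except Hadh over Hadha, Hadhb over Acadl, Acadm over Acadvl and Cpt2 over Slc25a20.

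In LDL-treated organoids the order began with Hadha at 2458 ± 701 and Hadhb at 2206 ± 577 per kilobase, and Hadh came next at 1943 ± 1064. Acadl at 1682 ± 205 and Acaa2 at 1547 ± 577 followed. Cpt1a at 974 ± 87.5 moved from place 8 to place 6, and Acadm at 655 ± 164 from place 6 to place 9. Only Acaa2 over Cpt1a was a pair of neighbours whose libraries did not overlap. The order depends on the length used: per kilobase of all annotated exons, Hadhb was at place 9 with PBS and 8 with LDL, because 15733 exon bases are annotated for it, and in PBS-treated organoids Cpt2 and Cpt1a were at places 5 and 6, above Acadm and Acadvl. By that length Acadl came first with LDL, at 1076 against 1039 for Hadha, and Cpt1a was at place 4.

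**Figure D4:**
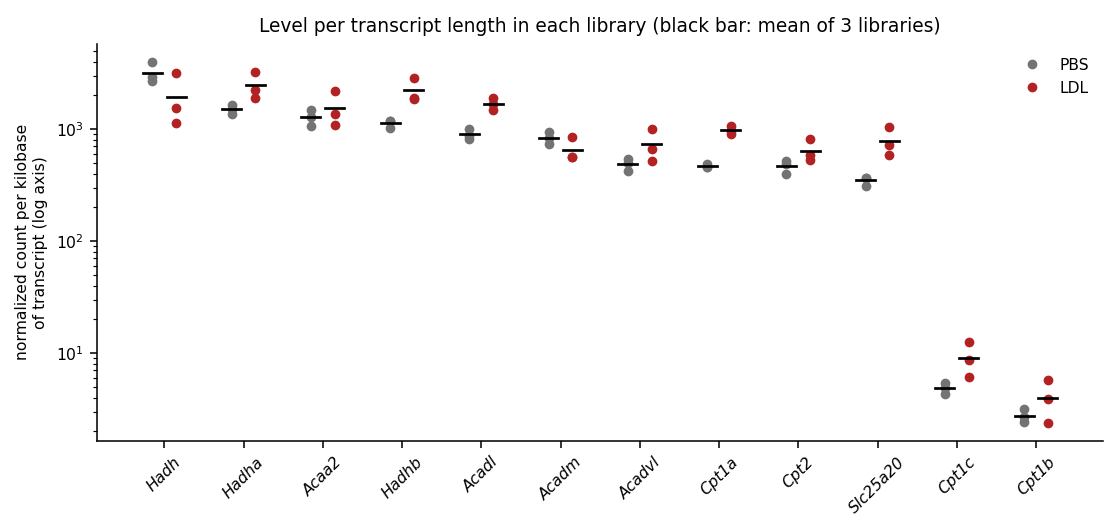
Normalized count per kilobase of transcript (log axis) of the 10 genes and of Cpt1b and Cpt1c in each PBS (grey) and LDL (red) library, ordered by the PBS mean, with black bars at group means. The 10 genes lie at 311 per kilobase or above, and Cpt1b and Cpt1c lie at or under 12.6.

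Of the auxiliary and short-chain enzymes of mitochondrial beta-oxidation, a list of 11 genes, 8 had a negative log2 fold change and 3 a positive one. The groups did not overlap in 7 genes with LDL below PBS and in 2 with LDL above. Of all genes tested, 12.3% and 11.9% did so. Without pairing 0 of 11 were called in either direction by limma and by edgeR (2 higher and 5 lower at an unadjusted p under 0.05, and DESeq2 called 2 up and 2 down). With the block 2 were called upregulated and 3 downregulated, where 5.68% and 3.46% of all genes were. Those that rose were Acad11, a dehydrogenase of very long chains, by 0.91 on the log2 scale (limma with the block, adjusted p = 0.00255), and Eci2, an isomerase for unsaturated chains, by 0.74 (0.00659). Those that fell were Echs1, the short-chain hydratase, by 0.72 (0.00727), Acat1, the acetoacetyl-CoA thiolase, by 0.63 (0.00462), and Hsd17b10, a short-chain dehydrogenase of the matrix, by 0.59 (0.0195).

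Echs1 shows the pattern, at 1205, 1461 and 1241 normalized counts with PBS and 593, 1116 and 734 with LDL. Eci1, the other isomerase, was lower, with a log2 fold change of -0.55 (limma with the block, adjusted p = 0.0305), at less than 1.5-fold. Acads, the short-chain acyl-CoA dehydrogenase, had a log2 fold change of -0.06 (0.788) and Decr1, the dienoyl-CoA reductase, one of 0.12 (0.567). Over the 11 genes the median log2 fold change was -0.55. No test compared this list with the 10 genes, and the lists were written with earlier results in view.

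**Figure D5:**
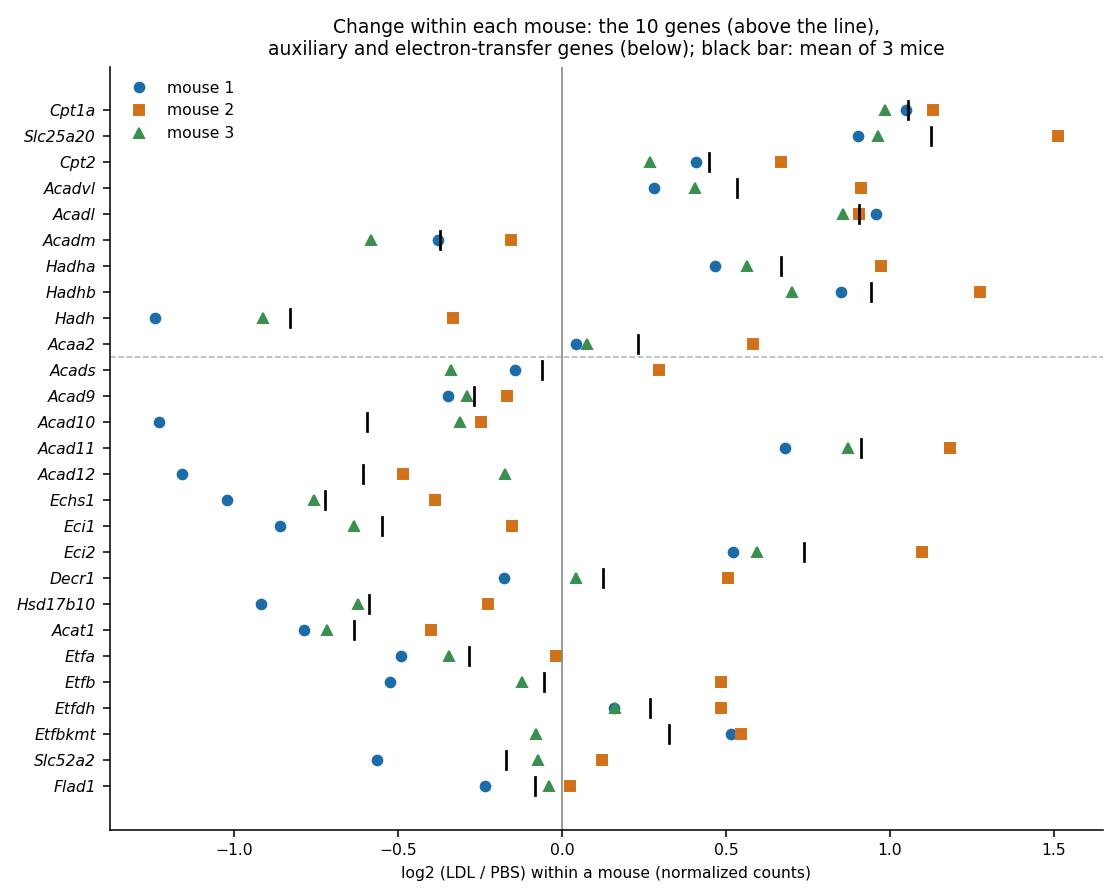
Log2 ratio of LDL to PBS within each mouse (horizontal axis; 1 symbol per mouse, black bar for the mean of 3 mice) for the 10 genes (above the dashed line) and for the auxiliary and electron-transfer genes (below it). Among the 10 genes Acadm and Hadh lie left of 0 in all 3 mice, and mouse 2 lies furthest right in 9 of 10.

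Electron transfer from the dehydrogenases to the respiratory chain, a list of 6 genes, gave no call. limma called 0 of 6 with or without the block, as did edgeR and DESeq2. At an unadjusted p under 0.05, limma gave 0 without pairing and 2 with the block, Etfdh (higher in 3 of 3 mice) and Etfa (lower in 3 of 3). Etfa and Etfb, the subunits of the electron-transfer flavoprotein, had log2 fold changes of -0.28 and -0.05, and Etfdh, its ubiquinone oxidoreductase, one of 0.27. Their adjusted p-values (limma) were 0.377, 0.927 and 0.350 without pairing and 0.104, 0.896 and 0.0859 with the block, and edgeR with the block gave 0.0482 for Etfdh, at less than 1.5-fold.

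Genes of general mitochondrial content were likewise not called. Of 16 genes for membrane channels, import, chaperones and citrate synthase, limma, edgeR and DESeq2 called 0, with or without the block. At an unadjusted p under 0.05, limma gave 0 without pairing and 2 with the block, Tfam (adjusted p = 0.0876) and Slc25a5 (adjusted p = 0.109), both lower. Their median log2 fold change was -0.11, and they lay between -0.31 and 0.14. Of the 16 genes, 14 had a negative log2 fold change. Their summed normalized counts were 117533, 130863 and 125368 with PBS and 108395, 126347 and 111170 with LDL in mice 1, 2 and 3. The sum was thus lower with LDL in each mouse. The ranges of the 2 treatments overlapped, whereas those of the sums of the 10 genes did not.

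Of 8 other genes of the carnitine system, 7 were found in the table and 1 was called. Slc22a5, the plasma membrane carnitine transporter, held 296, 283 and 304 normalized counts with PBS and 450, 572 and 483 with LDL, a log2 fold change of 0.76 (limma, adjusted p = 0.0348). All LDL values were above all PBS values. Crat, the short-chain carnitine transferase, had a log2 fold change of 0.45 (limma, adjusted p = 0.160, and 0.0105 with the block), under 1.5-fold.

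Cpt1 is inhibited by malonyl-CoA, and in the list of 6 genes for its making, removal or control, 1 was called. Acacb, the acetyl-CoA carboxylase whose product acts at mitochondria, held 73.5, 60.9 and 79.8 normalized counts with PBS and 610, 966 and 629 with LDL. The log2 fold change was 3.32 (limma, adjusted p = 0.000897). Acaca, the cytosolic form, had 4557 to 5071 normalized counts with PBS and 3981 to 4919 with LDL and was not called, with a log2 fold change of -0.14 (0.533). Mlycd, which removes malonyl-CoA, had a log2 fold change of -0.13 (0.829). Even with LDL, Acacb per kilobase was at 81.0 ± 22.1, under the 460 ± 51.1 of Acaca (SD, n = 3).

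Of 10 genes for PPAR receptors, their partners and coactivators, limma called 0 without pairing, as did edgeR, while 1 was higher and 2 lower at an unadjusted p under 0.05 and DESeq2 called 1 up. With the block, Ppard was called upregulated, with 615, 440 and 551 normalized counts with PBS and 1220, 568 and 1048 with LDL (log2 fold change 0.76, adjusted p = 0.00777). The rise was smallest in mouse 2, the mouse with the largest median change of the 10 genes, and a link between them was not tested. Ppara, Pparg and Ppargc1a had log2 fold changes of 0.05, -0.01 and -0.25 and were not called. Rxra, a receptor partner, and Ncoa1, a coactivator, were lower with the block at less than 1.5-fold. Their log2 fold changes were -0.38 (limma with the block, adjusted p = 0.0410) and -0.48 (0.00702). In this list 8 genes had a negative log2 fold change and 2 a positive one. Pdk4, a PPAR target that keeps pyruvate out of the citric acid cycle, held 10.2, 3.73 and 9.77 normalized counts with PBS and 633, 435 and 358 with LDL, a log2 fold change of 5.80 (limma, adjusted p = 0.00111).

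The genes whose pattern over the 6 libraries was most like that of Cpt1a were Hsdl2, Gm13657, Aldh3a2, Hsd17b11 and Fmo5, with Pearson's r of 0.999 to 0.995 on log2 values among 11929 other genes with a mean of at least 100. Aldh3a2 is the fatty aldehyde dehydrogenase, Hsd17b11 an enzyme of lipid droplets, Fmo5 a flavin monooxygenase and Gm13657 a noncoding RNA. Over the same 6 libraries, Cpt1a correlated with Acadl at 0.987, Hadhb at 0.953 and Slc25a20 at 0.942, and with Acadm at -0.53 and Hadh at -0.56. The 5 genes most like the mean profile of the 10 genes were Tacc3, Pxmp4, Eci2, Etfdh and Ddc (r of 0.997 to 0.991). All points share the treatment and the mice, so these values describe likeness only.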

How the data were processed

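RNA-Seq was analyzed in 6 libraries of intestinal organoids from 3 mice. Per the labels and the study's methods, rRNA-depleted RNA was made into stranded libraries and sequenced from 1 end, fastq files were made with bcl2fastq 2.20, and reads were aligned with STAR to GRCm39, counted with featureCounts and analyzed with DESeq2. The strand setting, annotation version and DESeq2 design are not given in the sources used here. The signal values the authors deposited are normalized counts, reads divided by 1 size factor per library. Dividing by the smallest step gave whole reads for 100% of values (within 0.001).

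Samples were grouped by the treatment in their labels, and the paired libraries share an animal identifier. After removal of treatment means, libraries of mice 1, 2 and 3 correlated with their partners at r = 0.48, 0.42 and 0.46 across genes, which are not independent replicates, so the replicate number was used as a block. Of 55416 identifiers, 54749 were named from GENCODE M39 and 667 were not. Tmlhe was not matched.

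Values were tested as log2(normalized count + 1) with limma 3.58.1 in R 4.3.3 (eBayes with a trend, two-sided, Benjamini-Hochberg over 18459 genes with a mean of at least 10). A log2 fold change with the pseudocount of 1 understates that of low genes. edgeR 4.0.16 (quasi-likelihood) and DESeq2 1.42.0 were run on the recovered reads. edgeR called 186 genes upregulated and 70 downregulated. Other steps used Python 3.11.15, pandas 2.3.3, numpy 2.4.6, scipy 1.17.1, matplotlib 3.10.9 and blastn 2.17.0. Sequence matches of at least 250 bases and 90% identity were kept, and promoters were read from GRCm39. The limma fits with and without the block, and edgeR and DESeq2 with the block, were tested on simulated data. The other fits were not.

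Alternatives were pseudocounts of 0.5 and 5, no filter or a minimum mean of 50, scaling by upper quartile or quantiles, the block, each library left out in turn, mouse 3 left out, edgeR, DESeq2, and any fold change. Mouse 3 left out with the block was chosen after seeing the data. The members and lists were chosen with earlier results of these data known. Genes named were the 10 members, list genes called with or without the block, 19 further pathway genes whatever their values, and the 5 genes most correlated with Cpt1a and with the members' mean profile. Acaca, Rxra, Ncoa1, Tfam, Slc25a5, overlapping genes and single markers were outside this rule and chosen after their values were seen. A row at 0 reads allows 3 reads in that library (counting error only). Values of a few other genes are not reported here.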

Additional observations from a re-analysis of the deposited data

How the results depend on the processing

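The direction of the log2 fold change held for 9 of the 10 genes under each of 19 alternatives, and that of Acaa2 turned from 0.23 to -0.051 without the LDL library of mouse 2 (-0.051 to 0.46 with 1 library left out in turn). Of 190 such values, 153 stayed on their side of the adjusted p threshold, 17 lost it and 19 gained it. With the replicate block, that is with mice paired, 5 members were called upregulated and 1 downregulated by limma (edgeR and DESeq2 with the block each called 1 downregulated), against 4 and 0 without it, and at any fold change 7 and 2. The block gave 1048 and 639 of all genes, against 162 and 73, and 1526 and 1375 at any fold change. With the block, edgeR called 1171 and 588 and DESeq2 981 and 511, while DESeq2 without it called 846 and 348. Beside Hadha and Hadh, the pairing changed no call of a member at over 1.5-fold.

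A filter at a mean of 50 left 2 members upregulated, Slc25a20 and Hadhb being lost. No filter gave 506 and 245 of all genes. Leaving out 1 library in turn gave 1 to 4 members upregulated and 0 to 1 downregulated, and 18 to 1179 genes upregulated and 2 to 1133 downregulated. Only Cpt1a was called without the PBS library of mouse 1 or 3 or the LDL library of mouse 3, Cpt1a and Acadl without the PBS library of mouse 2, and Hadh was called downregulated without the LDL library of mouse 2. The highest counts of all genes came without the LDL library of mouse 2 and the lowest without that of mouse 3. Without mouse 3, limma called 0 members and 0 genes in either direction (at an unadjusted p under 0.05, 4 members and 764 genes were higher and 0 and 508 lower; edgeR and DESeq2 were not run on these libraries), and with the block 4 members and 265 genes upregulated and 77 downregulated, with 1 list gene upregulated.

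Of the pathway-list genes, 2 were upregulated and 0 downregulated without the block, 5 and 3 with it, and 6 and 6 with it at any fold change. DESeq2 (both fits) and the blocked edgeR fit called 5 and 2. Leaving out 1 library gave 1 to 4 and 0 to 4, and mouse 3 left out 0. The log2 differences of the ratios kept their direction in all alternatives run, between 0.49 and 0.72 for Cpt1a to Cpt2 and between -1.03 and -0.84 for Acadm to Acadvl with 1 library left out. The cause of these changes was not tested. With 3 mice, the fit without pairing could miss changes that differ in level between mice, and no exact test of 3 libraries against 3 could pass 0.05.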
